A study of Danio rerio with 14 samples.

Results

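A set of 9 of the 19859 genes in the deposited table was chosen, of which 8 are described here across the retinas of choroideremia and wild-type zebrafish: the cytokine receptor-like gene crlf1a, the leukaemia inhibitory factor receptor genes lifra and lifrb, the shared receptor chains csf2rb and il2rga, the kinase tyk2, the transcription factor stat3, and the feedback inhibitor socs3a. They were chosen by name, and the study had already listed them as higher in mutant retinas, so their contrast between genotypes is given as a description without a test. RNAseq was performed on dissected retinas, retinal pigment epithelium (RPE) included, of 7 chmru848 and 7 wt zebrafish of the AB strain at 5 days post fertilisation (dpf). The chmru848 line carries a mutant chm gene, which encodes Rab escort protein 1, a factor needed to attach lipid anchors to Rab proteins, and it models choroideremia, an inherited degeneration of photoreceptors, RPE and choroid. Zebrafish have no second Rab escort gene to stand in for chm, so the degeneration reaches the whole animal and the embryos die near the age sampled, which limits the line as a model of a disease of the eye.

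In Jak-Stat signalling, a cytokine brings receptor chains together, Janus kinases bound to those chains phosphorylate them, and Stat proteins dock there, become phosphorylated and enter the nucleus to switch on target genes. Among those targets are Socs genes, whose proteins bind the receptors and kinases and damp the signal. In the fish retina, gp130-family cytokines and Stat3 are known for their part in the response of Müller glia to injury. No sequence of these genes is shown.

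A normalized count below is a read count divided by a size factor of its library, recovered by undoing the transformation of the deposited values. Normalized counts are not corrected for gene length, so they compare 1 gene between retinas and not 1 gene with another. A difference is the chmru848 mean minus the wt mean on the deposited log2 scale, which compresses low values, so that a difference of a weakly expressed gene is understated. Estimated depth ran from 14.2 to 29.3 M reads in chmru848 and from 18.1 to 26.5 M reads in wt. The most abundant gene of a retina held 5.16% to 36.6% of its normalized counts in chmru848 and 6.55% to 13.7% in wt. That share was largest in chmru848 replicates 4 (33.4%) and 6 (36.6%), which left less depth for their other genes. Genes at the lowest value numbered 1469 to 1983 in chmru848 replicates 1, 2 and 4, 369 to 760 in the other chmru848 retinas and 317 to 628 in wt. The summed photoreceptor markers of wt replicate 6 were 443503 normalized counts, below the 959764 to 1590200 of the other wt retinas. The chm transcript itself (ENSDARG00000003845) was at 310 ± 103 normalized counts in chmru848 and 358 ± 54.6 in wt (SD, n = 7 each), with overlapping groups, so it did not separate the genotypes.

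In this contrast 19.9% of the 19751 genes tested were called higher in chmru848 retinas by limma (adjusted p threshold of 0.05) and 23.7% were called lower. Of the 8 genes, 7 were called higher, all but il2rga. Every chmru848 retina lay above every wt retina for 6 of them, crlf1a, lifrb, csf2rb, tyk2, stat3 and socs3a, while 7.57% of all tested genes had that arrangement. As the contrast chose the genes, nothing is read from these counts. All 8 passed the filter on low values, and csf2rb and il2rga were at the lowest value in at least 1 wt retina. The 8 differences ran from 0.86 for il2rga to 5.97 for socs3a, with a median of 2.72, and the median over all tested genes was -0.06.

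**Figure D1:**
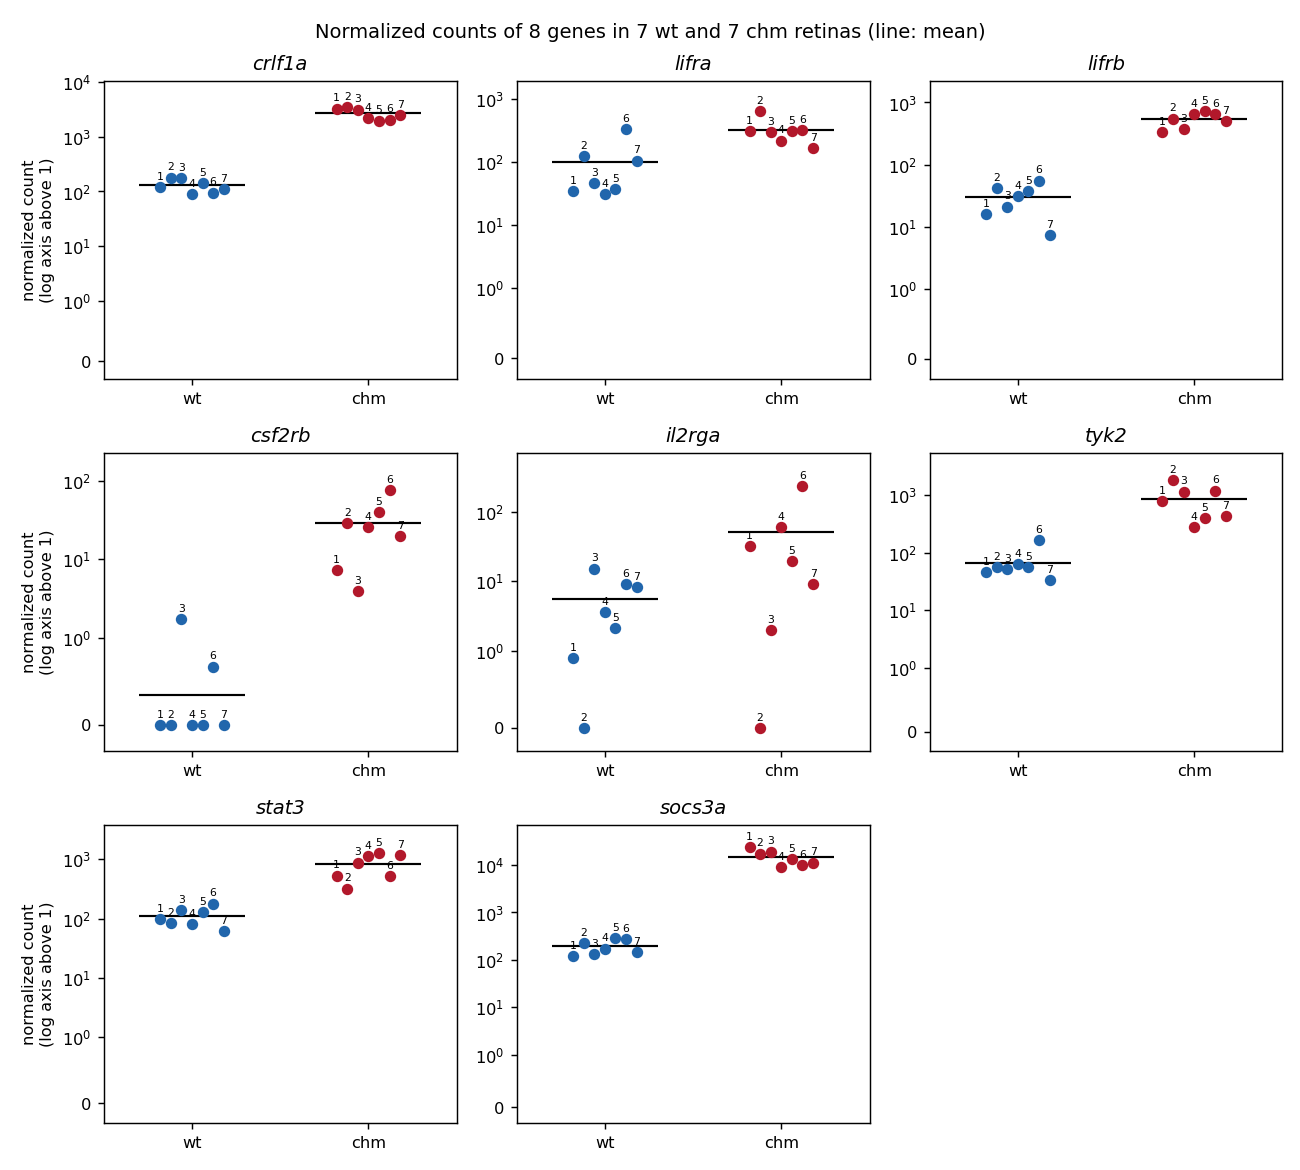
Normalized counts (vertical axis, logarithmic above 1 and linear below) of the 8 genes in 7 wt and 7 chmru848 retinas (chm in the plot), with 1 point per retina, the replicate number above it and the group mean as a line. For 6 genes the groups do not overlap, lifra overlaps through wt replicate 6 (329), and il2rga overlaps over most of its wt range.

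The gene on the ligand side was crlf1a (ENSDARG00000024365), whose product in mammals is secreted together with cardiotrophin-like cytokine factor 1 and acts on a receptor made of the Cntf receptor, the Lif receptor and gp130. Its normalized counts ran from 1992 to 3538 in chmru848 retinas (median 2509) and from 88.1 to 179 in wt (median 118). The chmru848 retinas formed a tight group far above the wt group, with replicates 1, 2 and 3 the highest and replicate 5 the lowest. The means were 2696 ± 639 and 130 ± 36.7 (SD, n = 7 each), a ratio of 20.7 and a difference of 4.02. Of the 8 genes, crlf1a varied least among mutants, with a coefficient of variation of 23.7%. Its difference ranked 46 among all tested genes.

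The mammalian partner of crlf1a, clcf1 (ENSDARG00000076140), was not in this set and rose from 33.1 ± 19.3 to 161 ± 44.9 normalized counts (difference 1.60, SE 0.24, adjusted p = 3.18e-05 by limma). Its 7 chmru848 values, 93.9 to 225, lay above all 7 wt values, 7.36 to 67.4. The third partner, the receptor gene cntfr, had 248 ± 96.5 normalized counts in chmru848 and 322 ± 71.8 in wt and did not pass the test (difference -0.37, SE 0.21, adjusted p = 0.159 by limma).

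The Lif receptor is the signalling chain that pairs with gp130, and the zebrafish genome holds a pair of genes for it. For lifra (ENSDARG00000098857) the normalized counts were 163 to 636 in chmru848 (median 304) and 31.0 to 329 in wt (median 45.7). The groups overlapped because of wt replicate 6 at 329, above all mutant retinas but replicate 2. The other wt retinas reached 124 at most. The means were 320 ± 151 and 101 ± 107, a ratio of 3.17 and a difference of 1.59. Without wt replicate 6, a comparison added after the values were seen, the wt mean was 62.8 ± 40.5 (n = 6), the ratio 5.10 and the difference 1.87, and all 7 mutant retinas lay above the wt retinas.

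For lifrb (ENSDARG00000039863) the normalized counts were 334 to 737 in chmru848 (median 552) and 7.36 to 55.6 in wt (median 31.2). No mutant retina came near the wt group, in which replicate 6 was again the highest. The means were 544 ± 152 and 30.2 ± 16.5, a ratio of 18.0 and a difference of 3.20.

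The paralogs therefore stood in different proportion within a retina. The ratio of lifrb to lifra normalized counts was above 1 in 6 of 7 chmru848 retinas (0.868 to 3.10, median 2.04) and in 2 of 7 wt retinas (0.0703 to 1.02, median 0.466). The lowest chmru848 ratio, in replicate 2, lay below those of wt replicates 4 and 5. As the genes differ in length by an amount not used here, a ratio of 1 does not mean equal molecule numbers, and only its shift between retinas can be read. Both genes enter the choice of members, so the shift has no test.

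**Figure D2:**
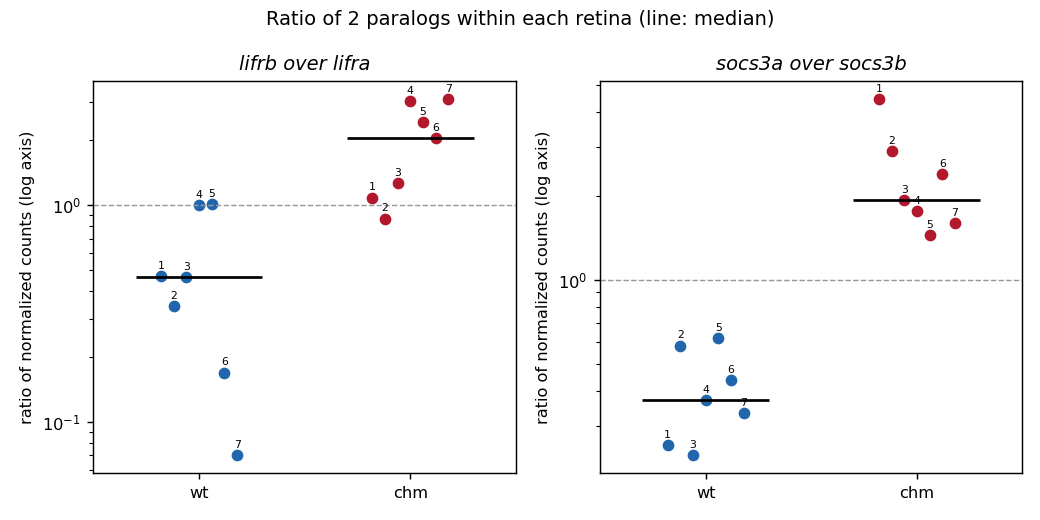
Ratio of normalized counts of lifrb to lifra and of socs3a to socs3b within each of 7 wt and 7 chmru848 retinas (logarithmic vertical axis, points numbered by replicate, lines at the group medians, dashed line at 1). The median ratio of lifrb to lifra is 0.466 in wt and 2.04 in chmru848, and that of socs3a to socs3b is 0.371 and 1.93.

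The shared co-receptor gp130 (il6st, ENSDARG00000104693) rose from 196 ± 110 to 555 ± 156 normalized counts (difference 1.39, SE 0.24). Its groups overlapped through wt replicate 6 at 444, the wt retina that was also highest for lifra and lifrb, whereas the other wt retinas stood at 129 to 173. The study lists il6st among its own calls on these retinas, so its direction is not independent evidence.

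Both csf2rb, the beta chain shared by receptors of the Il3, Il5 and Csf2 type in mammals, and il2rga, one of the fish copies of the gamma chain shared by Il2-type receptors, are genes of blood-derived cells. For csf2rb (ENSDARG00000076586) the normalized counts were 3.97 to 76.1 in chmru848 (median 25.8), while 5 of 7 wt retinas were at 0 and the highest wt retina had 1.75. Every wt retina was under the floor of 3 estimated reads, and the chmru848 retinas had 4.01 to 60.3 estimated reads. The mean of 28.9 ± 24.3 in chmru848 was at least 9.65-fold higher than wt, set against the mean wt floor of 2.99 normalized counts. The mutant values spread widely, with replicate 6 the highest and replicates 1 and 3 close to the floor.

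For il2rga (ENSDARG00000068858) the normalized counts were 0 to 235 in chmru848 (median 19.4) and 0 to 15.3 in wt (median 3.61). The groups overlapped, with 4 of 7 mutant retinas above all wt retinas, 1 retina of each genotype at 0, and chmru848 replicate 6 alone carrying most of the mutant signal. The means were 51.2 ± 83.9 and 5.61 ± 5.52, a difference of 0.86. Leaving out 1 retina at a time gave differences of 0.49 to 1.11.

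Neutrophil markers differed between genotypes in the same direction as these genes, and macrophage markers less clearly. Of 6 neutrophil markers listed, mpx and cpa5 had no matched identifier. The other 4 (lyz, MMP9, mmp13a and srgn) were called higher, 4 of 4, beside 19.9% over all tested genes. Their summed normalized counts were 2053 to 5462 in chmru848 and 107 to 262 in wt. Most of that sum was MMP9, which other cells also make, at 2821 ± 1331, and lyz had 225 ± 147 normalized counts against 6.51 ± 7.30 in wt. Of 12 macrophage and microglia markers 3 were called higher and 0 lower by limma (4 and 0 at an unadjusted p under 0.05, 3 and 0 by an exact rank-sum test), a share of 25.0% beside 19.9% over all tested genes, and their sum was 192 to 1966 in chmru848 (median 862) and 249 to 549 in wt (median 476), with none at 0 in all retinas of a group. The sums of chmru848 replicates 1 and 3, 265 and 192, lay within or below the wt range. The 3 called higher were an MFAP4 gene (ENSDARG00000038683), ptprc and SPI1. An MPEG1 gene (ENSDARG00000043093), LCP1 and CORO1A had differences of -0.30, -0.25 and -0.10 that did not pass. The other MPEG1 gene (ENSDARG00000055290) and csf1ra had differences of 0.16 and 0.06 that did not pass either. The remaining markers, marco and the other MFAP4 genes, had positive differences of 0.48 to 0.79 that did not pass. The highest macrophage sum was in chmru848 replicate 5 and the highest csf2rb and il2rga values were in replicate 6. Of 13 photoreceptor markers 9 were called lower and 1 higher, an ARR3 gene (ENSDARG00000098475). Of 10 RPE markers 6 were called lower and 0 higher by limma, where 23.7% of all tested genes were lower. Their summed normalized counts varied widely, from 886 to 25710 in chmru848, and were 9102 to 20463 in wt. The sum of chmru848 replicate 7 lay above every wt retina and that of replicate 5 (15606) within the wt range. At an unadjusted p under 0.05 and by an exact rank-sum test, 0 RPE markers were higher as well. Of 7 genes listed as Müller glia markers 1 was called higher, GFAP (difference 2.64), and 1 lower, rlbp1a (difference -2.75). The rlbp1a means were 1177 ± 515 normalized counts in chmru848 and 7835 ± 2109 in wt. Which cells express rlbp1a was not tested, so its fall is not read as one of Müller glia. In a bulk sample, fewer cells of a type and less RNA per cell cannot be told apart. The part of these markers in the result was not tested.

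The Janus kinase gene tyk2 (ENSDARG00000020326) serves interferon, Il12-type and gp130-type receptors. Its normalized counts were 280 to 1808 in chmru848 (median 784) and 33.2 to 165 in wt (median 56.1). The groups did not touch, yet the mutant retinas fell into a wide range in which replicates 2, 3 and 6 lay at 1152 to 1808 and replicates 4, 5 and 7 at 280 to 426. The means were 863 ± 555 and 67.5 ± 44.0, a ratio of 12.8. The wt spread came largely from replicate 6, and without it, again a comparison added after the values were seen, the wt mean was 51.2 ± 10.5 (n = 6), the ratio 16.8 and the difference 3.13 in place of 2.96.

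Of 3 further Janus kinase genes 1 rose. The kinase most used by gp130 receptors, jak1 (ENSDARG00000020625), rose with no overlap from 1259 ± 297 to 6564 ± 1410 normalized counts (difference 2.34, SE 0.19), and it too is one of the study's calls. For jak2a the means were 246 ± 119 in chmru848 and 153 ± 36.0 in wt, a difference of 0.48 that did not pass the test (adjusted p = 0.140 by limma). The other Jak2 gene, listed as JAK2 (ENSDARG00000018882), stood at 340 ± 114 in chmru848 and 379 ± 111 in wt, a difference of -0.17 that did not pass either (adjusted p = 0.556 by limma).

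Stat3 is the transcription factor downstream of gp130 receptors. The normalized counts of stat3 (ENSDARG00000022712) were 319 to 1277 in chmru848 (median 875) and 61.0 to 178 in wt (median 96.7). No groups overlapped, the lowest mutant retina was replicate 2 and the highest were replicates 4, 5 and 7, the same retinas that had the lowest tyk2. The means were 833 ± 379 and 109 ± 40.9, a ratio of 7.61 and a difference of 2.48.

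Of 5 further Stat genes reported here, 0 were called higher by limma and 2 were called lower. At an unadjusted p under 0.05, 1 was higher, and by an exact rank-sum test 0 were. The difference of stat5a was 0.49 (adjusted p = 0.0559 by limma), and it passed in 5 of 24 alternatives. In stat2, which carries type I interferon signals, the normalized counts fell from 304 ± 119 to 120 ± 35.3 (difference -1.07, SE 0.25, adjusted p = 0.00236). The gene listed as STAT4 (ENSDARG00000028731), which acts downstream of Il12, fell from 49.0 ± 23.3 to 22.5 ± 27.6 (difference -0.84, SE 0.31, adjusted p = 0.0361 by limma), and this call held in 14 of the 23 alternatives run for it.

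Socs3 binds gp130-type receptors and Jak kinases and ends their signal. The normalized counts of socs3a (ENSDARG00000025428) were 9059 to 23849 in chmru848 (median 13183) and 119 to 287 in wt (median 172). The lowest mutant retina exceeded the highest wt retina by far, and within the mutants replicates 1, 2 and 3 were the highest, as for crlf1a. The means were 14866 ± 5470 and 195 ± 68.9, a ratio of 76.4. Its difference of 5.97 ranked 8 among all tested genes.

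The paralog socs3b (ENSDARG00000026611), on the study's own list, rose from 490 ± 82.6 to 6708 ± 2161 normalized counts (difference 3.62, SE 0.20). Within a retina the ratio of socs3a to socs3b was 1.44 to 4.45 in chmru848 (median 1.93) and 0.235 to 0.617 in wt (median 0.371). The ratio was above 1 in 7 of 7 chmru848 retinas and in 0 of 7 wt retinas, so the larger proportional difference of socs3a showed in each retina. Both genes were known to be higher before this ratio was formed, and it carries no test.

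Around the 8 genes, 72 further genes of the pathway had an identifier, were tested and are reported. Of these 32 were called higher, 44.4%, and 5 lower, 6.94%, against 19.9% and 23.7% over all tested genes, and their median difference was 0.45. The study had listed 15 of the 72 as its own calls on these retinas, and 15 of 15 were higher, which is not independent. Its text had named il11a, il11b and il12a as well. Without those 18 genes, 14 of 54 were called higher, 25.9%, and 5 lower, 9.26%, with a median difference of 0.19.

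Among the ligands 4 of 5 rose by limma, 80.0%, beside 19.9% over all tested genes. Besides clcf1 these were il12a, which encodes the p35 chain of Il12, at 1660 ± 995 normalized counts against 3.50 ± 2.36 in wt (difference 5.64, SE 0.31), and the Il11 genes. For il12a, 3 of 7 wt retinas were under the floor of 3 estimated reads, so its wt mean is uncertain. For il11b the chmru848 mean was 170 ± 44.7 and 6 of 7 wt retinas were at 0 with all 7 under the floor, which places chmru848 at least 56.8-fold higher. For il11a the mean was 19.9 ± 16.2, at least 6.67-fold higher by the same floor. The study's text already named il11a, il11b and il12a as higher, so only clcf1 and cntf lie outside its calls. The gene cntf, a neurotrophic cytokine of the same family, had 9.34 ± 8.82 and 6.92 ± 7.45 normalized counts and did not pass (adjusted p = 0.703 by limma). Retinas of both genotypes were under the floor for cntf. The listed ligand genes il6, m17 and crlf1b are absent from the deposited values and lif had no matched identifier, so these ligands were not measured here.

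Of 7 further gp130- and Il12-type receptor genes 6 rose, of which 4 are the study's own calls, and 2 of the other 3. The leptin receptor gene lepr was highest in its difference, from 35.8 ± 17.7 to 916 ± 409 normalized counts (difference 3.70, SE 0.27), and il12rb2, a chain of the Il12 receptor, rose from 1.45 ± 1.76 to 90.2 ± 67.2. For il12rb2, 6 of 7 wt retinas were under the floor of 3 estimated reads, so its wt mean is uncertain. The rise of il11ra was smaller, from 35.6 ± 14.7 to 77.3 ± 13.7 (difference 0.72, SE 0.18, adjusted p = 0.00377 by limma). That of il6r was 0.45 (adjusted p = 0.0402 by limma) and held in 11 of the 23 alternatives run for it.

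Receptors of other cytokine classes were counted too, and the classes were not tested against each other. Among 6 shared-chain receptor genes, il4r.1 and il21r.1, both among the study's calls, rose by 1.88 and 1.80 and il2rb, the beta chain of the Il2 receptor, fell from 12.5 ± 8.83 to 1.44 ± 2.49 normalized counts (difference -0.82, SE 0.21, adjusted p = 0.00416 by limma). For il2rb, 5 of 7 chmru848 retinas were at 0. The growth hormone receptor gene ghra fell from 201 ± 89.2 to 51.3 ± 16.4 normalized counts, with no overlap between groups (difference -1.40, SE 0.24). It was 1 of 3 single-chain receptor genes, and the others, its paralog ghrb and PRLR, had differences of -0.06 and -0.08 that did not pass. Of 8 class II receptor genes, which serve interferons and Il10-type cytokines, 0 passed by limma, 0 had an unadjusted p under 0.05 and 0 passed an exact rank-sum test, with differences of -0.48 to 0.41.

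Of 11 further Socs genes 5 rose by limma, 45.5%, beside 19.9% over all tested genes, and 4 were higher by an exact rank-sum test. None was lower by limma, at an unadjusted p under 0.05 or by the rank-sum test. The 5 were socs3b, socs1a and socs5b, which the study's lists hold, and a pair of genes for Cish, an inhibitor induced by Stat5. Of the 8 that those lists do not hold, 2 rose, the Cish pair. The call of socs5b held in 15 of 24 alternatives, and its groups overlapped. The genes cishb and CISH rose by 2.69 and 2.94, from 130 ± 107 to 910 ± 295 and from 406 ± 327 to 3391 ± 2449 normalized counts, with no overlap. The Pias and phosphatase genes, which restrain Stats and kinases by other routes, included 1 called higher, PTPN2 (0.42), 1 called lower, PTPN6 (-0.75), and 7 that did not pass. Those 2 calls held in 9 of 24 and 10 of 23 alternatives.

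Of 15 genes known as Stat targets in mammals, 13 rose, and 8 of the 10 that the study's lists do not hold. The values of JUNB (ENSDARG00000104773), a subunit of the AP-1 transcription factor, rose from 442 ± 383 to 10740 ± 3435 normalized counts (difference 5.25, SE 0.69). CEBPB, an acute-phase transcription factor, rose by 3.91 and irf9, a partner of Stat2, by 2.50. CEBPD and PIM1 did not pass, with differences of 0.66 and 0.16. These genes answer to many other signals as well.

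**Figure D3:**
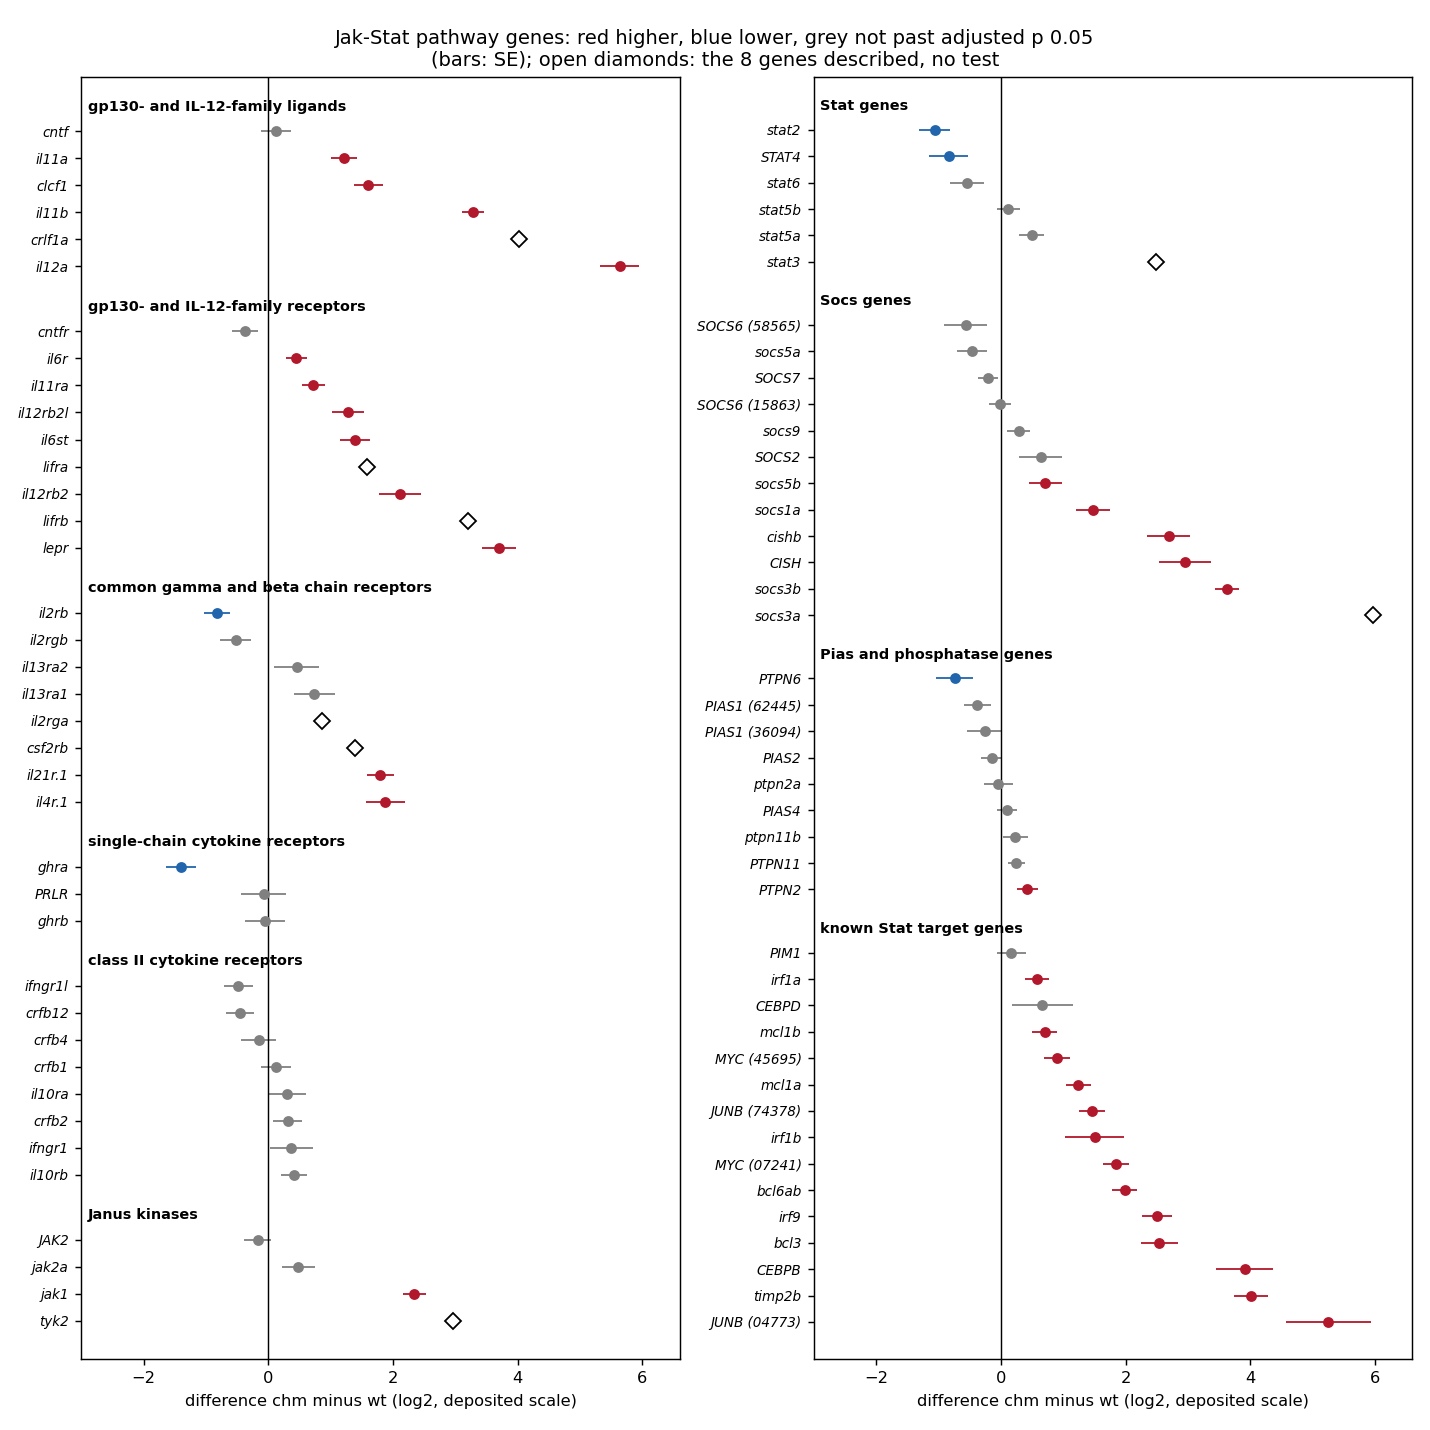
Difference between 7 chmru848 and 7 wt retinas (horizontal axis, log2, deposited scale) of 80 Jak-Stat pathway genes in 10 families, with SE bars and colour by limma call (red higher, blue lower, grey not past an adjusted p of 0.05), and the 8 described genes as open diamonds without a test. Of the 72 others, 32 are higher and 5 lower. The digits beside a repeated symbol are the end of its Ensembl identifier.

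Retinas of 1 genotype differed among themselves, a spread that was not used to choose the genes, and this allowed pairs of the 8 to be compared across retinas. In chmru848, 7 genes had at least 3 estimated reads in all 7 retinas and made 21 pairs, of which 10 were positively and 11 negatively correlated. In wt, 6 genes made 15 pairs, 12 positive and 3 negative. Of the 36 pairs, 10 had an unadjusted p under 0.05 by an exact two-sided permutation test, and 0 passed Benjamini-Hochberg adjustment over the 36 by Pearson's r or by Spearman's rho, where the lowest adjusted p was 0.156.

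The pair with the rho largest in size in mutants was tyk2 and stat3, with r = -0.86 and rho = -0.86 across the 7 chmru848 retinas (exact permutation p = 0.0220 and 0.0238, adjusted 0.156 and 0.341). Leaving out the 2 retinas farthest from the median tyk2 gave r = -0.77. In wt the same pair had r = 0.74 (exact permutation p = 0.0389, adjusted 0.156) and rho = 0.39. There r was -0.38 without the 2 farthest retinas and 0.45 without wt replicate 6, so the wt value of r rests on these retinas. That the pair differs between genotypes was not tested.

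The pairs below are some of those with an unadjusted p under 0.05 and, like the others, did not pass adjustment. For crlf1a and socs3a r was 0.82 and rho 0.64 across 7 chmru848 retinas (exact permutation p = 0.0385 and 0.139, adjusted p 0.156 for r), and r was 0.72 without the 2 farthest retinas. In wt retinas r was -0.01. For crlf1a and lifrb r was -0.79 in chmru848 (exact permutation p = 0.0437, adjusted 0.157) and rho -0.75, and r was -0.99 without the 2 farthest retinas. For lifrb and csf2rb r was 0.86 (exact permutation p = 0.0139, adjusted 0.156) and rho 0.79, and r dropped to 0.56 without the 2 farthest retinas. For lifra and stat3 r was -0.82 (exact permutation p = 0.0125, adjusted 0.156) and rho -0.79, and r was -0.55 without the 2 farthest retinas. For lifrb and socs3a r was -0.80 in chmru848 (exact permutation p = 0.0333, adjusted 0.156) and -0.27 without the 2 farthest retinas. In wt the r of lifrb and socs3a was 0.82 (exact permutation p = 0.0274, adjusted 0.156) and 0.92 without them. A difference between genotypes was not tested.

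**Figure D4:**
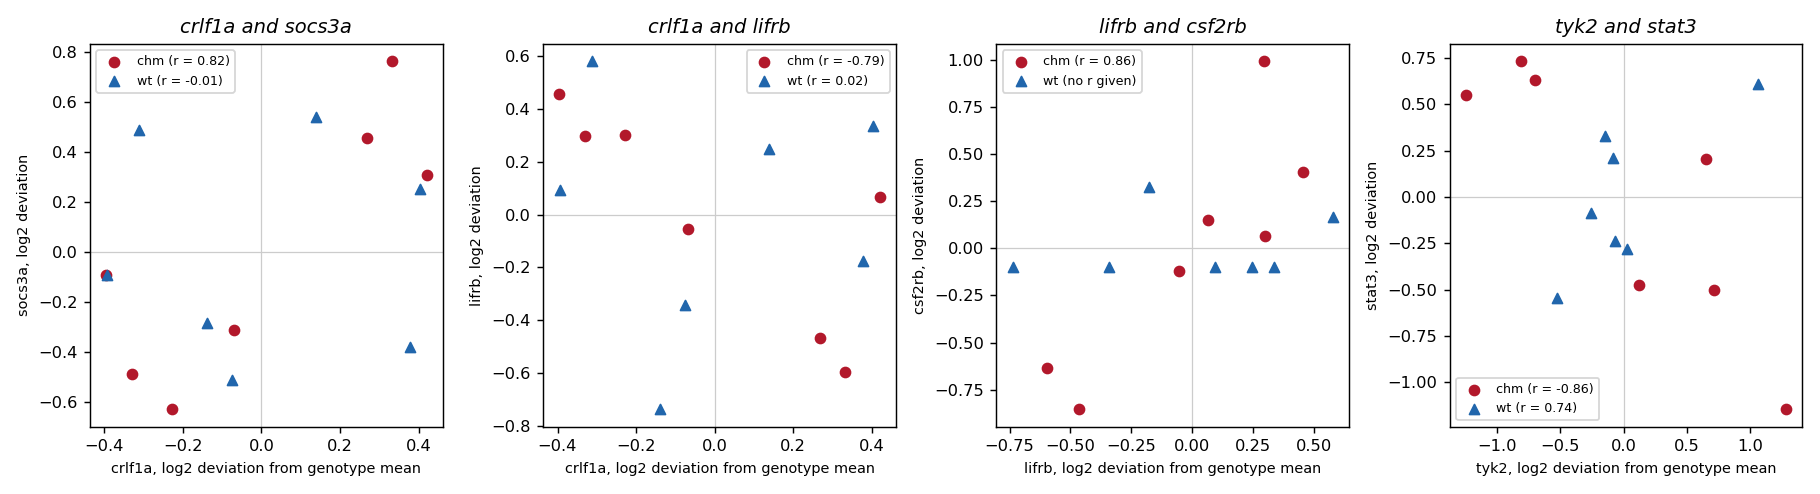
Log2 deviations from the genotype mean (both axes, deposited scale) for 4 gene pairs, with chmru848 retinas as circles and wt retinas as triangles, 7 of each. The chmru848 points run upward for crlf1a with socs3a (r = 0.82) and lifrb with csf2rb (r = 0.86) and downward for crlf1a with lifrb (r = -0.79) and tyk2 with stat3 (r = -0.86), and none passes adjustment over the 36 pairs.

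Estimated depth, and how many genes sat at the lowest value, were set against each of these genes within a genotype. Of 26 such relations 1 had an unadjusted p under 0.05 by exact permutation and 0 passed adjustment, with a lowest adjusted p of 0.686. The deviations of the 8 genes showed no retina that was high or low for every gene. In mutants, replicate 1 was highest for socs3a, replicate 2 for crlf1a, lifra and tyk2, replicate 5 for lifrb and stat3, and replicate 6 for csf2rb and il2rga. In wt, replicate 6 was highest for 4 of the 8 genes.

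**Figure D5:**
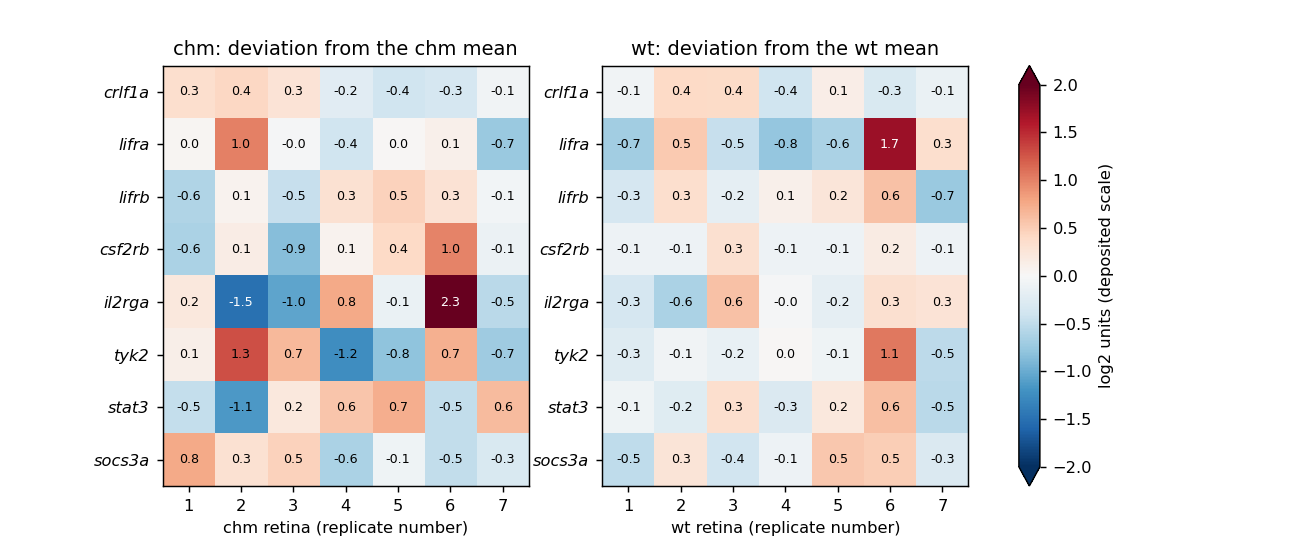
Deviation of each gene from the mean of its own genotype (log2, deposited scale, colour and printed value) in 7 chmru848 retinas (left) and 7 wt retinas (right). The largest deviation is that of il2rga in chmru848 replicate 6 (log2 value 8.10, chmru848 mean 5.84). The columns of wt replicate 6 (lifra, lifrb, tyk2 and stat3) and of chmru848 replicates 2 and 4 (tyk2 high and low) also stand out.

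The genes whose pattern was most like that of a member, by the lower of the Pearson r across 7 chmru848 and across 7 wt retinas, were searched among 18877 genes with a symbol. For crlf1a the closest was MRS2 at 0.82, a mitochondrial magnesium channel, followed by si:dkeyp-123a12.2 and RAB3IL1. For lifrb it was KCTD16 at 0.88, then PGM2L1 and NCF1, a subunit of the phagocyte NADPH oxidase. For tyk2 it was si:dkey-220a11.5 at 0.91, then RIPOR2 and si:ch211-271d10.2. For stat3 it was csnk2a1 at 0.88, a catalytic subunit of casein kinase 2, then RAP1GAP and ODC1, the ornithine decarboxylase, and for socs3a zc2hc1c at 0.88, then lgr6 and tsnare1. These values were picked as the highest of many and are a description. They compare retinas within a genotype and leave out the difference between genotypes. KCTD16 was lower in chmru848, at 25.0 ± 15.9 normalized counts against 113 ± 27.2 in wt, unlike lifrb, while PGM2L1 and NCF1 had higher means in chmru848. Some of these genes were weakly expressed, such as RAP1GAP at 4.04 ± 3.74 in chmru848, near the floor. Shared regulation was not tested.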

How the data were processed

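RNAseq was performed on dissected retinas of 7 chmru848 and 7 wt zebrafish. Per the submitters' processing notes, reads were trimmed with Trim Galore 0.6.7, mapped to GRCz11 with STAR 2.7.10a, counted per gene with RSEM 1.3.3 and normalised with DESeq2 1.38.3. The deposited values are variance-stabilized and on a log2 scale, from 4.35 to 23.1, for 19859 genes in 14 columns. They are not counts, so the study's DESeq2 test was replaced by limma 3.58.1 on these values (mean-variance trend, two-sided, R 4.3.3) with Benjamini-Hochberg adjustment. A gene was tested if 7 or more retinas exceeded the lowest value, which kept 19751 and dropped 108. The transformation was undone from its lowest value, and the result differed from the study's listed base means by a relative 1.63e-14 at most.

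Depth is not stated in the files. The spacing of low values was taken as 1 read to estimate it. Only 51.0% to 63.8% of low values lay within 5% of a whole step, as RSEM divides reads between genes, so no count test was run. The floor of 3 reads covers counting error only. Values of near-identical copies are uncertain for the same reason. Symbols came from a table that matched 18974 identifiers, some with human-style symbols, and from the study's 251 supplementary pairs. The 9 genes, the pathway and marker lists and the tests were chosen with earlier results of these data known. The named genes are the 9, the pathway lists' genes, and the 3 genes most like each of 5 members. T and NK cell markers were not analysed here, and 1 of the 9 genes and 1 pathway gene are not reported here. The fit was tested on simulated data. The alternatives tried were the gene filter, quantile and median scaling of the retinas, weights for samples, robust or untrended moderation, log2 of counts plus 1, the log2 ratio of means with 0.5 added, a replicate block, an exact rank-sum test and each retina left out in turn.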

Additional observations from a re-analysis of the deposited data

Results flagged for a closer look

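The tyk2 value of wt replicate 6, 165 normalized counts, lay far from the other 6 wt retinas, which stood at 33.2 to 63.1. On the deposited log2 scale its gap to the nearest retina was 0.65 of the group's whole range, above Dixon's critical value for 7 samples. Of 16 groups looked at on that log2 scale (8 genes in each genotype) 1 was flagged, and chance flags about 1 in 20. Without this retina the chmru848 to wt ratio of tyk2 was 16.8 in place of 12.8.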

How the results depend on the processing

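The differences of the 8 genes were recomputed 168 times under the alternatives. Of these 160 moved by less than 1 SD, 8 moved by more, all under a change of scale, and 0 changed sign. Counts of pathway genes here are over 73, 1 of them not reported. The count of pathway genes called higher was 32 and stayed within 1.5 times of it, at 28 to 35 with 1 retina left out in turn. The count called lower was 5 and dropped to 2 with a filter of 2 log2 units above the lowest value, which tested fewer genes (13633). With 1 retina left out in turn it was 3 to 6. It was 3 without chmru848 replicate 2 or 3 and without wt replicate 1, 2, 5 or 7. The cause was not tested. Of the 37 pathway calls, 31 passed under every alternative run for them. With 1 retina left out, 3526 to 3970 genes were higher and 4241 to 4791 lower. Leaving out chmru848 replicates 1, 2 and 4 together, chosen after seeing the data, gave 3801 and 4213 genes, and 33 and 4 pathway genes. The wt correlation of tyk2 and stat3 was -0.38 without the 2 farthest retinas.

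The replicate numbers do not pair the retinas. The correlations of deviations of same-numbered retinas were -0.12 to 0.10, and no retina correlated best with its own number. With the replicate block, limma called 4036 genes higher and 4791 lower, and 31 and 5 pathway genes. Low counts limit csf2rb and il2rga, which have retinas at or near the floor of 3 reads. Other pathway genes are limited in the same way, among them il11a, il11b, il12a, il12rb2, il2rb and cntf.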

Other observations

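Beyond the 8 genes, wt replicate 6 was the highest wt retina for 26 of the 72 other pathway genes, 36.1%, and for 22.3% of all 19751 tested genes. In it irf1b had 246 normalized counts and CEBPB 1437, where the other wt retinas reached 32.2 and 549 at most, and the irf1b value lay above every chmru848 retina (38.7 to 187). Its JUNB (ENSDARG00000104773) value went the other way, at 6.65 normalized counts, and wt replicate 7 had 3.29, while the remaining wt retinas had 332 to 1110.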
